A study of Mus musculus with 12 samples.

Results

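The genes described here drive the cell cycle and DNA replication, and were followed in kidney mRNA of diabetic mice. They are 53 of the 57490 genes of the count table, chosen by gene symbol from textbook cell cycle genes, each found once. The 35 G2/M genes act between the end of DNA copying and the end of cell division, and the 18 S phase genes act in or just before DNA copying. Messenger RNA enriched with oligo(dT) was sequenced from 12 male mice, 4 per group, labelled as 13 weeks old. Ctrl mice were BKS mice heterozygous for the db mutation (db/+, written db/m) and were given purified water. Model mice were db/db mice of the strain BKS.Cg-Dock7m +/+ Leprdb/JNju, also given purified water. YHY mice were db/db mice of that strain given a water extract of Yiqi Huoxue Yangyin Decoction (YHY), a herbal mixture, at 6.24 g/mL. In each group the liquid went in by daily gavage for 4 weeks, 50 µL for every 10 g of mouse, after the mice had arrived at 8 weeks of age. The db/db mice had been kept for high and the Ctrl mice for low random blood glucose, so genotype and glucose cannot be told apart, and since Ctrl mice carry a db allele they are not wild type in that gene. The tissue is labelled kidney on each sample, while the text of the series names renal cortex. Model against Ctrl asks what changes in the diabetic kidney, YHY against Model asks what changes when YHY is given, and YHY against Ctrl, which the series did not plan, sets treated diabetic mice beside non-diabetic ones.

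A dividing cell copies its DNA in S phase, passes through G2 and separates its chromosomes in mitosis, and most of the genes that carry out these steps are transcribed only in the phase that needs them. E2F factors switch on S phase genes, while a complex built on MuvB, with B-MYB and FOXM1, switches on G2/M genes, and both sets are silenced in resting cells by the retinoblastoma family and the DREAM complex. Few cells of the adult kidney divide, although tubule cells can enter the cycle again after injury, and cell cycle arrest with high p21 (Cdkn1a) is a known feature of diabetic kidney growth.

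The count table held 24415658 to 33276634 counts per mouse, 29632718 to 33276634 in Ctrl, 24415658 to 29784346 in Model and 25149764 to 29698342 in YHY. Levels are given as CPM, counts scaled to a common library size and corrected by TMM, a scaling that compares libraries over most of their genes. The scaling mattered here, because the share of counts from mitochondrial transcripts was 18.6%, 22.7%, 18.4% and 18.5% in Ctrl 1 to 4, 41.2%, 58.9%, 55.3% and 53.4% in Model 1 to 4 and 53.8%, 64.6%, 54.6% and 54.2% in YHY 1 to 4. Each Ctrl mouse was below each db/db mouse in that share, Model 1 was the lowest and YHY 2 the highest of the db/db mice, and the 95% Wilson intervals were at most 0.0396 percentage points wide. A share taken by a few transcripts lowers the CPM of all others unless it is scaled for, and TMM factors ran from 0.720 in YHY 2 to 1.345 in Ctrl 4. The genes of interest were sparse, with a mean of 7.80 counts per library for Ttk, the lowest, and 494.7 for Pcna, the highest. Of the 53 genes, 52 passed the filter on low counts, the exception being Ttk, a kinase of the spindle checkpoint, and 17431 genes were tested in all. Bulk tissue gives 1 value per mouse, so fewer cells of a type and less RNA per cell cannot be told apart. Markers of kidney cells were present in each mouse, with Slc34a1 of the proximal tubule at 966 to 2792 CPM.

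Many G2/M genes share short letters near their start, among them the CHR element, which the MuvB complex reads. The promoters of several genes described below are shown for such letters and for the E2F-like letters of S phase genes. RefSeq promoters of GRCm38.p6, from 250 bases before to 50 after each start, were found for 44 of the 53 genes. Those missing were Ccna2, Aurkb, Kif20a, Tpx2, Foxm1, Pbk, Mcm4, Gmnn and Ccne2. The stretches printed first are the 120 bases before the start, 5′ to 3′ on the strand of the gene, with TTTGAA (the letters of a CHR element) and CCAAT in capitals, also when they lie on the other strand as TTCAAA and ATTGG. They come from chr7:135716380-135716499 (minus strand) for Mki67, chr11:99024190-99024309 (minus strand) for Top2a, chr10:69352913-69353032 (minus strand) for Cdk1, chr4:118437344-118437463 (minus strand) for Cdc20 and chr2:164769809-164769928 (plus strand) for Ube2c, all in GRCm38.p6.
Mki67: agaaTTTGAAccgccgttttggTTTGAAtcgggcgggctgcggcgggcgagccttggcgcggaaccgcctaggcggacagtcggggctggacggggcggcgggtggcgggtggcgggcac
Top2a: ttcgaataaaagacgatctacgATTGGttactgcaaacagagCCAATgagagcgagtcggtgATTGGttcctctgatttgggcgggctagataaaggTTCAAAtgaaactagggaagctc
Cdk1: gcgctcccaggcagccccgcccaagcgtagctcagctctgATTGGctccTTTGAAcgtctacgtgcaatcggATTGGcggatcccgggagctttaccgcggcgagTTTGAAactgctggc
Cdc20: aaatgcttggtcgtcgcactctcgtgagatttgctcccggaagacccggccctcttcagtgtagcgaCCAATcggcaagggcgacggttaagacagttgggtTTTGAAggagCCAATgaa
Ube2c: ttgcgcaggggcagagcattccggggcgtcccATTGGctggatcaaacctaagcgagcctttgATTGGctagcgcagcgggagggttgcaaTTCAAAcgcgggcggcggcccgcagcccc
Each of these stretches held TTTGAA on one strand or the other, and those of Top2a, Cdk1, Cdc20 and Ube2c also held CCAAT. For other G2/M genes a window of 30 bases around TTTGAA, in capitals, is shown, from chr6:124830194-124830223 (plus strand) for Cdca3, chr2:69206172-69206201 (minus strand) for Spc25, chr7:122159453-122159482 (plus strand) for Plk1 and chr9:61946780-61946809 (minus strand) for Kif23.
Cdca3: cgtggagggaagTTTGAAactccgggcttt
Spc25: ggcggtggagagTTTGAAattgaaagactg
Plk1: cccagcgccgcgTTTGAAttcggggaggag
Kif23: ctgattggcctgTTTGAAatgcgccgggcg
In the S phase genes Mcm3 and Cdt1 the capitals mark GCGGGAA, an E2F-like run, at chr1:20820275-20820304 (minus strand) and chr8:122568022-122568051 (plus strand).
Mcm3: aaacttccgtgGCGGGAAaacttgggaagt
Cdt1: gcgcggaatccGCGGGAActacctttttgg
Over both strands of the 300 bases, TTTGAA was in 22 of 29 G2/M promoters (75.9%) and 2 of 15 S phase promoters (13.3%), against 20.2% of the 27025 genes of the promoter table. Before the start alone it was in 9 of the 29 G2/M promoters and 2 of the 15 S phase promoters. The share of all genes was not taken for that part, so these counts have no background beside them. The windows shown for Cdca3, Spc25, Plk1, Mcm3 and Cdt1 lie after the start. That of Kif23 runs from position -10 to 20, with its TTTGAA at position 3, also after the start. CCAAT was in 23 of 29 G2/M promoters (79.3%) and 9 of 15 S phase promoters, against 41.1% of all genes. GCGGGAA was in 0 of 29 G2/M promoters and 5 of 15 S phase promoters (33.3%), against 5.29% of all genes. GCGCGAA, another E2F-like run, was in 2 of 29 (6.90%), 3 of 15 (20.0%) and 1.81%. Over the 300 bases TTTGAA was thus more frequent in the G2/M promoters than in the S phase promoters. Each E2F-like run was in a minority of the S phase promoters, and other forms of E2F letters were not searched. A match describes letters in a window, and whether any factor binds there was not measured.

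Levels between genes were compared per kilobase of the gene length listed by the authors (RPKM). In Ctrl the S phase genes led, with Pcna, the clamp that holds DNA polymerase on the template, at 7.98 RPKM and Gmnn, the inhibitor of replication licensing, at 7.53 RPKM as group means. Spc25, a kinetochore subunit, was the highest G2/M gene at 3.19 RPKM and took rank 3 of 53. The order differed between groups. Cdca3, an adaptor of the ubiquitin system in mitosis, was at 0.613 RPKM in Ctrl (rank 19), 3.71 in Model (rank 4) and 1.06 in YHY (rank 13). Kif23, a kinesin of the midzone of the dividing cell, was at 0.326 RPKM in Ctrl (rank 26), 2.17 in Model (rank 9) and 3.51 in YHY (rank 4). Summed over the 35 G2/M genes, the level per length was 11.4 ± 1.67 RPKM (Ctrl), 34.8 ± 3.59 (Model) and 17.0 ± 2.52 (YHY; SD, n = 4 each). Over the 18 S phase genes it was 31.4 ± 1.42, 33.4 ± 5.03 and 29.1 ± 3.17. Some counts are uncertain, because the counting was not stated to use strand and reads of overlapping genes may have been shared. Cdc20 overlaps Elovl1 (mean count 1961) by 53 bases on the other strand, Mcm7 overlaps Cops6 (1766) and Ap4m1 (189.5), and Tk1 overlaps Afmid (175). Ccna2 overlaps Exosc9 (167), Kif20a overlaps Cdc23 (274), Cdca8 overlaps 9930104L06Rik (198) and Ccne2 overlaps Ints8 (492). Cdc45 overlaps Ufd1 (981) and Prc1 overlaps Rccd1 (87.0). Ccnb2 has a near copy in Ccnb2-ps (54.8), so its reads may have been split, and Kif23 had no such neighbour.

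**Figure D1:**
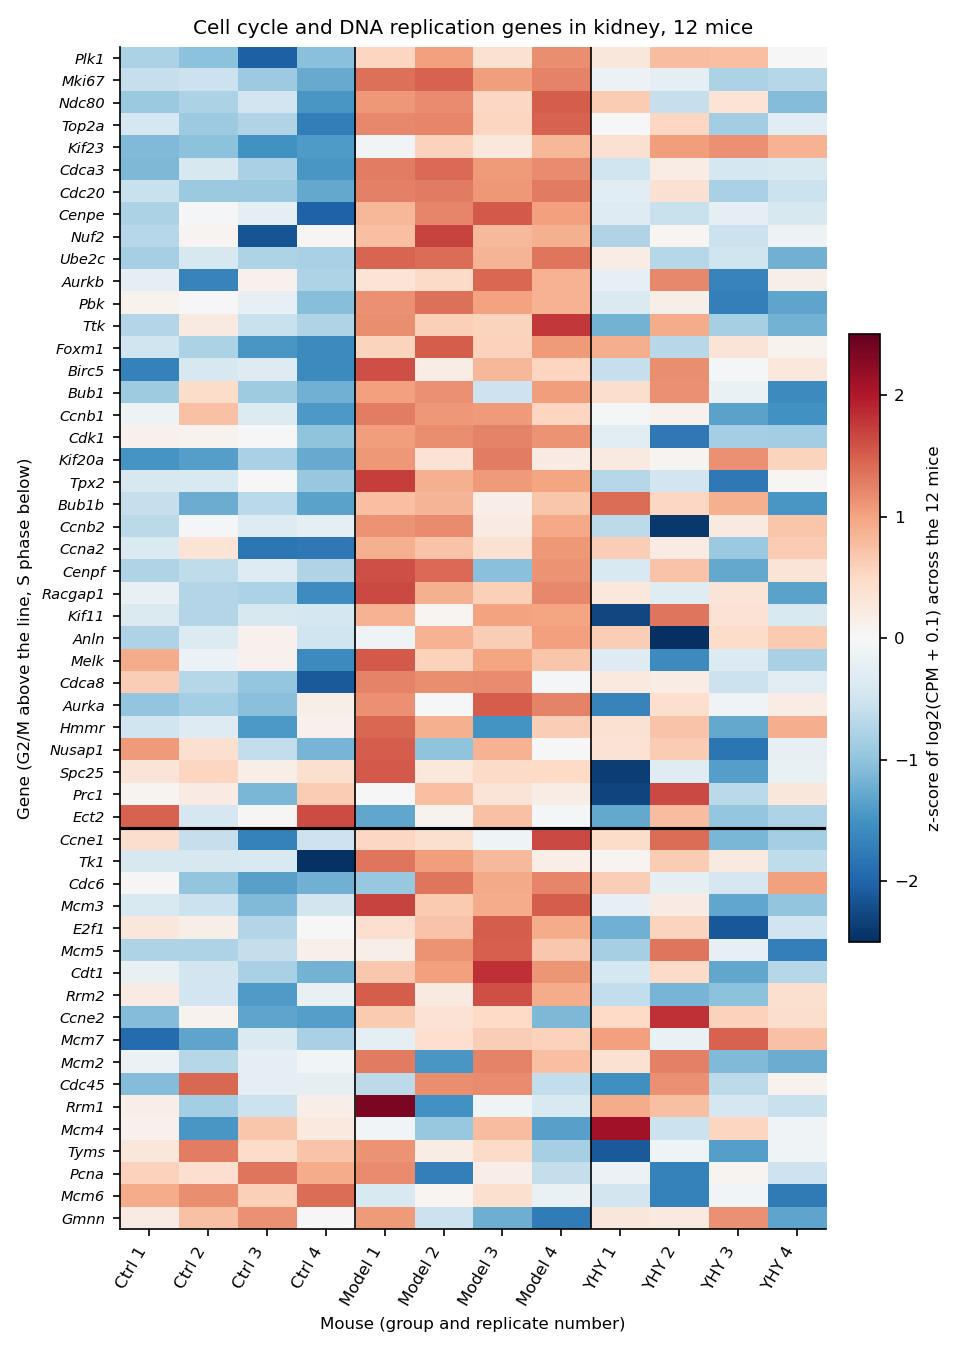
Each line is 1 of the 53 genes, G2/M above the black line and S phase below, each column 1 mouse, and colour the z-score of log2(CPM + 0.1) of that gene over the 12 mice. The Model columns are red for most G2/M genes, of which 23 of 34 tested passed the test against Ctrl, while Kif23 is highest in YHY, at 15.8 to 36.3 CPM.

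In Model against Ctrl, edgeR's quasi-likelihood test with Benjamini-Hochberg adjustment over all genes called 23 of the 34 G2/M genes tested higher at an adjusted P under 0.05, where 19.6% of all genes were called higher and 18.5% lower. It called 0 lower, as did the unadjusted P under 0.05 (27 higher, 0 lower) and DESeq2 (24 higher, 0 lower). The median log2 fold change of the G2/M genes was 1.73, from -0.43 for Ect2 to 3.201 for Plk1 and positive in 33, beside a median of 0.04 over all genes tested. The direction of that median held under each scaling tried, from 1.33 with library size alone to 1.83 with upper-quartile scaling. Library size alone moved the median of all genes to -0.39 and the share of higher among called genes from 51.5% to 21.4%, and under it 15 G2/M genes were called higher and 1 lower. Upper-quartile scaling moved the median of all genes to 0.14. Without the mitochondrial transcripts the same 27 of the 53 genes were called. With at least 10 counts in every mouse 19 G2/M genes were left to test, of which 16 were called higher and 0 lower. With each mouse left out in turn, 18 to 25 G2/M genes were called higher, and between 21 and 27 of the 27 called genes kept their call.

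Mki67 encodes Ki-67, the coat protein of mitotic chromosomes that marks cycling cells, and lies at chr7:135291513-135318090 in GRCm39. It was at 3.53, 3.68, 2.55 and 1.82 CPM in Ctrl 1 to 4, at 22.1, 24.1, 16.3 and 19.4 CPM in Model 1 to 4 and at 5.30, 4.87, 2.87 and 3.06 CPM in YHY 1 to 4. Each Model mouse stood above each Ctrl and each YHY mouse, and Ctrl and YHY overlapped. Group means were 2.90 ± 0.875 (Ctrl), 20.5 ± 3.41 (Model) and 4.02 ± 1.24 CPM (YHY; SD, n = 4 each). The change from Ctrl to Model was the surest of the G2/M genes by edgeR (log2 fold change 2.82 ± 0.27 (SE), adjusted P = 3.93e-06). Top2a encodes the topoisomerase that untangles DNA before chromosomes separate (chr11:98883769-98915015). It was at 1.83, 1.19, 1.37 and 0.524 CPM in Ctrl 1 to 4, at 8.18, 8.24, 4.52 and 10.4 CPM in Model 1 to 4 and at 2.71, 4.37, 1.23 and 2.17 CPM in YHY 1 to 4. Model 3 was the lowest Model mouse and was still above each Ctrl mouse, and just above YHY 2, the highest YHY mouse. Group means were 1.23 ± 0.540 (Ctrl), 7.83 ± 2.43 (Model) and 2.62 ± 1.32 CPM (YHY; SD, n = 4 each), with a rise in Model by edgeR (log2 fold change 2.67 ± 0.42 (SE), adjusted P = 0.000179). Cdk1 encodes the kinase that starts mitosis with cyclins A and B (chr10:69170976-69188768). It was at 1.78, 1.75, 1.57 and 0.569 CPM in Ctrl 1 to 4, at 4.38, 4.86, 5.21 and 4.66 CPM in Model 1 to 4 and at 1.22, 0.221, 0.670 and 0.659 CPM in YHY 1 to 4. The Model mice lay close together above all others, Ctrl 4 was well below the other Ctrl mice, and the YHY mice reached below the lowest Ctrl mouse, with 4 counts behind the value of YHY 2. Group means were 1.42 ± 0.572 (Ctrl), 4.78 ± 0.348 (Model) and 0.693 ± 0.410 CPM (YHY; SD, n = 4 each), and Cdk1 rose in Model by edgeR (log2 fold change 1.75 ± 0.42 (SE), adjusted P = 0.00384).

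**Figure D2:**
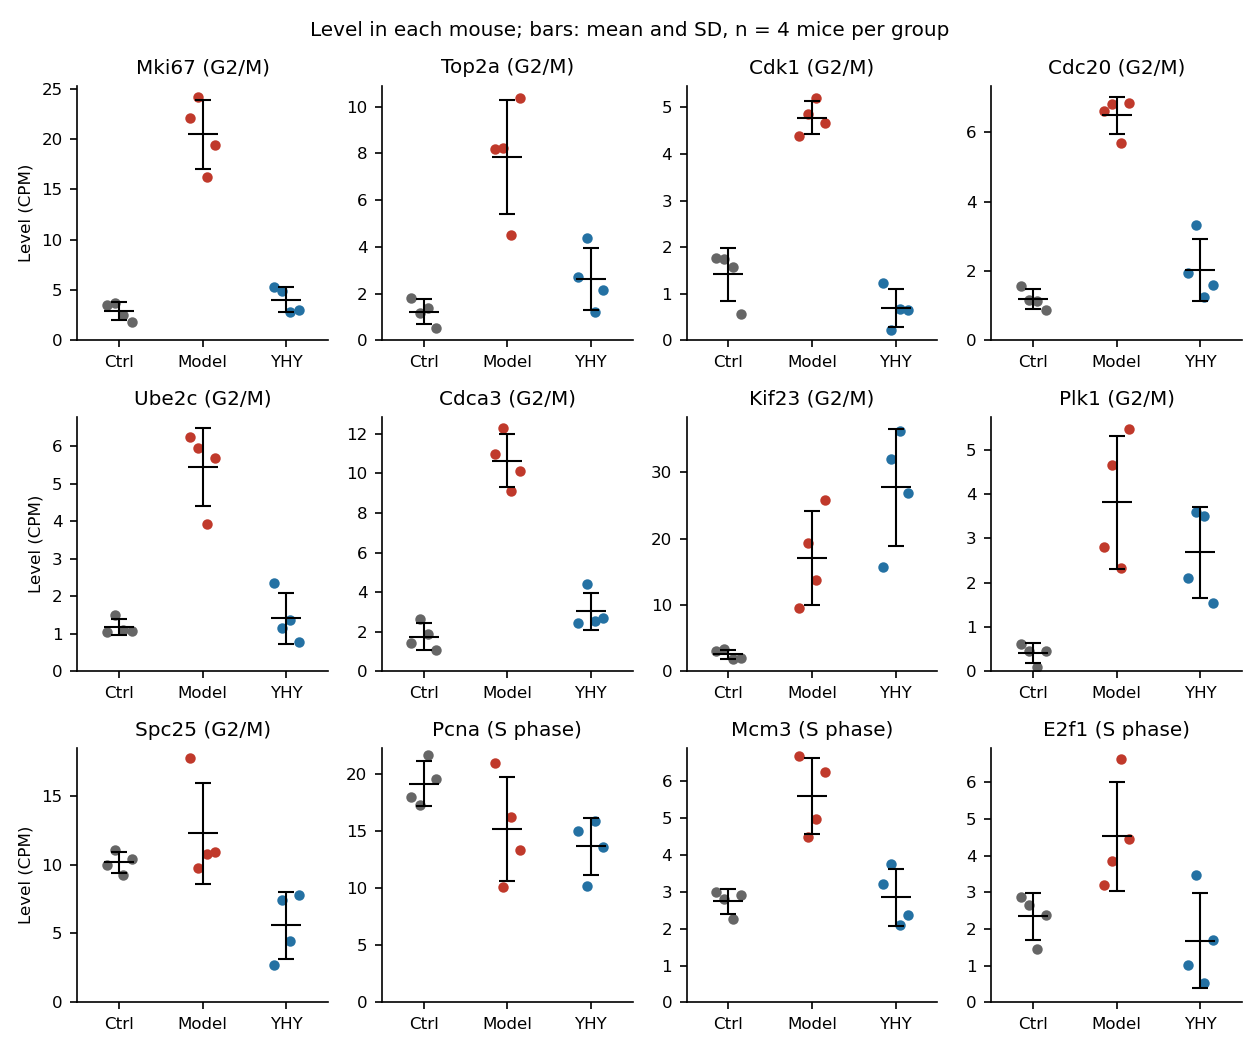
Level in CPM of 12 genes, with a point for each mouse and bars for the mean and SD of the 4 mice of a group. Mki67, Top2a, Cdk1, Cdc20, Ube2c and Cdca3 have each Model mouse above each Ctrl and YHY mouse, Kif23 and Plk1 have both db/db groups above Ctrl, and Pcna has each YHY mouse below each Ctrl mouse.

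Cdc20, Ube2c and Cdca3 act in the marking of proteins for destruction in mitosis. Cdc20, the activator of the anaphase-promoting complex, was at 1.56, 1.15, 1.15 and 0.865 CPM in Ctrl 1 to 4, at 6.63, 6.81, 5.71 and 6.84 CPM in Model 1 to 4 and at 1.95, 3.32, 1.27 and 1.59 CPM in YHY 1 to 4. Model was apart from both other groups, and YHY 2 was the highest mouse outside Model. By edgeR Cdc20 rose in Model against Ctrl (log2 fold change 2.45 ± 0.32 (SE), adjusted P = 4.14e-05), with the reservation on Elovl1. Ube2c, the ubiquitin-conjugating enzyme of the same complex, was at 1.06, 1.50, 1.10 and 1.07 CPM in Ctrl 1 to 4, at 6.25, 5.95, 3.93 and 5.69 CPM in Model 1 to 4 and at 2.37, 1.16, 1.38 and 0.775 CPM in YHY 1 to 4. The lowest Model mouse was Model 3 and the highest YHY mouse YHY 1, and Ctrl and YHY overlapped. Ube2c rose by edgeR (log2 fold change 2.21 ± 0.34 (SE), adjusted P = 0.000153). Cdca3, whose product helps degrade the mitotic brake Wee1, was at 1.42, 2.65, 1.89 and 1.07 CPM in Ctrl 1 to 4, at 10.98, 12.3, 9.13 and 10.1 CPM in Model 1 to 4 and at 2.44, 4.42, 2.57 and 2.71 CPM in YHY 1 to 4. The Model mice were well above all others, and the YHY mice ran from within the Ctrl range to above it. Cdca3 rose in Model by edgeR (log2 fold change 2.60 ± 0.30 (SE), adjusted P = 1.50e-05).

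Kif23, part of the centralspindlin complex that sets the plane of cell division (chr9:61823187-61854056), was at 3.00, 3.31, 1.89 and 2.09 CPM in Ctrl 1 to 4, at 9.56, 19.3, 13.7 and 25.8 CPM in Model 1 to 4 and at 15.8, 32.1, 36.3 and 26.9 CPM in YHY 1 to 4. Both db/db groups were above Ctrl, Model and YHY overlapped, and the highest YHY mice exceeded each Model mouse. Kif23 rose in Model against Ctrl by edgeR (log2 fold change 2.74 ± 0.32 (SE), adjusted P = 1.76e-05). Plk1, the kinase that drives centrosome maturation and mitotic exit, was at 0.624, 0.468, 0.0980 and 0.455 CPM in Ctrl 1 to 4, at 2.80, 4.67, 2.33 and 5.47 CPM in Model 1 to 4 and at 2.10, 3.59, 3.499 and 1.55 CPM in YHY 1 to 4. The Model and YHY mice were again mixed with each other and all above Ctrl, where 4 to 26 counts lay behind each value. Plk1 had the largest fold change of the 34 tested G2/M genes (log2 fold change 3.201 ± 0.49 (SE), adjusted P = 0.000147 by edgeR). Ndc80, which ties kinetochores to microtubules, was at 0.288, 0.343, 0.490 and 0.137 CPM in Ctrl 1 to 4, at 2.51, 2.76, 1.42 and 3.81 CPM in Model 1 to 4 and at 1.60, 0.442, 1.19 and 0.232 CPM in YHY 1 to 4. Each Model mouse was above each Ctrl mouse, and YHY 1 and YHY 3 were near the lowest Model mouse while YHY 2 and YHY 4 were near Ctrl. Ndc80 rose in Model by edgeR (log2 fold change 3.05 ± 0.60 (SE), adjusted P = 0.000935), on a mean of 32.8 counts per library over all mice. Ttk, left out of the test by the filter, was at 0.0480, 0.2496, 0.0735 and 0.0455 CPM in Ctrl 1 to 4, at 0.708, 0.381, 0.365 and 1.28 CPM in Model 1 to 4 and at 0, 0.553, 0.0372 and 0 CPM in YHY 1 to 4, so its highest Ctrl value lay below its lowest Model value. The 11 G2/M genes without a call were Ccnb1, Nusap1, Bub1, Aurkb, Kif11, Prc1, Anln, Ect2, Spc25, Hmmr and Melk, with log2 fold changes of -0.43 to 2.197 and adjusted P values by edgeR from 0.0860 up.

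In Model against Ctrl edgeR called 4 of the 18 S phase genes higher (22.2%), near the 19.6% of all genes, and 0 lower, where 18.5% of all genes were. At an unadjusted P under 0.05 there were 8 higher and 1 lower, and DESeq2 gave 7 higher and 0 lower. Leaving out Model 1 gave 2 lower, Pcna (edgeR adjusted P = 0.0311) and Gmnn (0.0200). The median log2 fold change of the S phase genes was 0.52, from -0.46 to 1.33, and stayed positive under each scaling, from 0.11 with library size alone, where 0 were called higher and 3 lower (Gmnn, Mcm6 and Pcna), to 0.62 with upper-quartile scaling. Pcna (chr2:132091082-132095234) was at 18.0, 17.3, 21.7 and 19.6 CPM in Ctrl 1 to 4, at 20.9, 10.1, 16.2 and 13.4 CPM in Model 1 to 4 and at 15, 10.2, 15.9 and 13.6 CPM in YHY 1 to 4. Model 1 was the only Model mouse above most Ctrl mice, Model 2 was the lowest, and each YHY mouse was below each Ctrl mouse. Group means were 19.1 ± 1.96 (Ctrl), 15.2 ± 4.57 (Model) and 13.7 ± 2.502 CPM (YHY; SD, n = 4 each), and the change in Model was not called (log2 fold change -0.33 ± 0.20 (SE), adjusted P = 0.208 by edgeR). Mcm2, a subunit of the helicase that opens DNA, was at 8.21, 6.90, 8.03 and 8.47 CPM in Ctrl 1 to 4, at 13.0, 5.43, 12.8 and 10.99 CPM in Model 1 to 4 and at 9.73, 12.9, 6.07 and 5.81 CPM in YHY 1 to 4. Model 2 lay below all Ctrl mice while the other Model mice lay above, so the groups overlapped. Its means were 7.90 ± 0.695 (Ctrl), 10.6 ± 3.55 (Model) and 8.62 ± 3.36 CPM (YHY; SD, n = 4 each), with no call (log2 fold change 0.42 ± 0.28 (SE), adjusted P = 0.255 by edgeR). Mcm3, another subunit of that helicase, was at 3.00, 2.81, 2.25 and 2.91 CPM in Ctrl 1 to 4, at 6.66, 4.48, 4.98 and 6.24 CPM in Model 1 to 4 and at 3.21, 3.76, 2.08 and 2.36 CPM in YHY 1 to 4. Model was apart from Ctrl and from YHY, which overlapped, and Mcm3 rose in Model by edgeR (log2 fold change 1.03 ± 0.26 (SE), adjusted P = 0.00545).

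Rrm2, the regulated subunit of the enzyme that makes deoxynucleotides, was at 2.35, 1.87, 1.37 and 2.07 CPM in Ctrl 1 to 4, at 3.64, 2.38, 3.75 and 2.99 CPM in Model 1 to 4 and at 1.79, 1.49, 1.56 and 2.52 CPM in YHY 1 to 4. Model 2 was just above Ctrl 1, so Model and Ctrl did not overlap, while YHY 4 reached into the Model range. Its means were 1.92 ± 0.414 (Ctrl), 3.19 ± 0.633 (Model) and 1.84 ± 0.469 CPM (YHY; SD, n = 4 each), and edgeR made no call in Model against Ctrl (log2 fold change 0.73 ± 0.30 (SE), adjusted P = 0.0661), where DESeq2 did (adjusted P = 0.0356). By edgeR it was called with upper-quartile scaling (adjusted P = 0.03615), at least 10 counts in every mouse (0.0351) and only the 8 mice compared (0.0498). E2f1, the transcription factor that switches on S phase genes, was at 2.88, 2.65, 1.44 and 2.39 CPM in Ctrl 1 to 4, at 3.19, 3.86, 6.62 and 4.45 CPM in Model 1 to 4 and at 1.03, 3.48, 0.521 and 1.70 CPM in YHY 1 to 4. Model mice were above Ctrl mice, the YHY mice spread from below Ctrl to the Model range, and YHY 2 was far above the other YHY mice. Its means were 2.34 ± 0.631 (Ctrl), 4.53 ± 1.49 (Model) and 1.68 ± 1.29 CPM (YHY; SD, n = 4 each). The change in Model was not called (log2 fold change 0.95 ± 0.44 (SE), adjusted P = 0.104 by edgeR), and was when YHY 2 was left out of the shared fit (edgeR adjusted P = 0.0478) and with only the 8 mice compared (0.02035). Cdt1, which loads the helicase on origins, was at 4.03, 3.68, 3.26 and 2.87 CPM in Ctrl 1 to 4, at 5.44, 6.14, 8.04 and 6.29 CPM in Model 1 to 4 and at 3.70, 5.09, 2.75 and 3.37 CPM in YHY 1 to 4. Model was apart from Ctrl and YHY, and Cdt1 rose in Model (log2 fold change 0.90 ± 0.24 (SE), adjusted P = 0.00839 by edgeR). Tk1, the kinase that salvages thymidine, was at 6.20, 6.24, 6.27 and 2.28 CPM in Ctrl 1 to 4, at 14.3, 12.4, 11.1 and 8.12 CPM in Model 1 to 4 and at 7.78, 10.2, 8.37 and 5.54 CPM in YHY 1 to 4. Ctrl 4 was the lowest mouse, each Model mouse was above each Ctrl mouse, and YHY 2 and YHY 3 were within the Model range. Tk1 rose in Model by edgeR (log2 fold change 1.14 ± 0.30 (SE), adjusted P = 0.00684). Mcm7, a helicase subunit, was at 9.68, 10.95, 13.3 and 12.1 CPM in Ctrl 1 to 4, at 13.6, 15.6, 16.2 and 16.1 CPM in Model 1 to 4 and at 17.6, 13.8, 19.3 and 16.6 CPM in YHY 1 to 4. Both db/db groups lay above Ctrl, with a small rise in Model (log2 fold change 0.42 ± 0.15 (SE), adjusted P = 0.0421 by edgeR) that reversed to -0.03 with library size alone. The Mcm7 call was lost (edgeR adjusted P) without Ctrl 1 (0.217), Ctrl 2 (0.0914), Ctrl 3 (0.0661), Ctrl 4 (0.104), Model 1 (0.0634), Model 2 (0.0888), Model 3 (0.104), Model 4 (0.0995) or YHY 1 (0.0507).

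**Figure D3:**
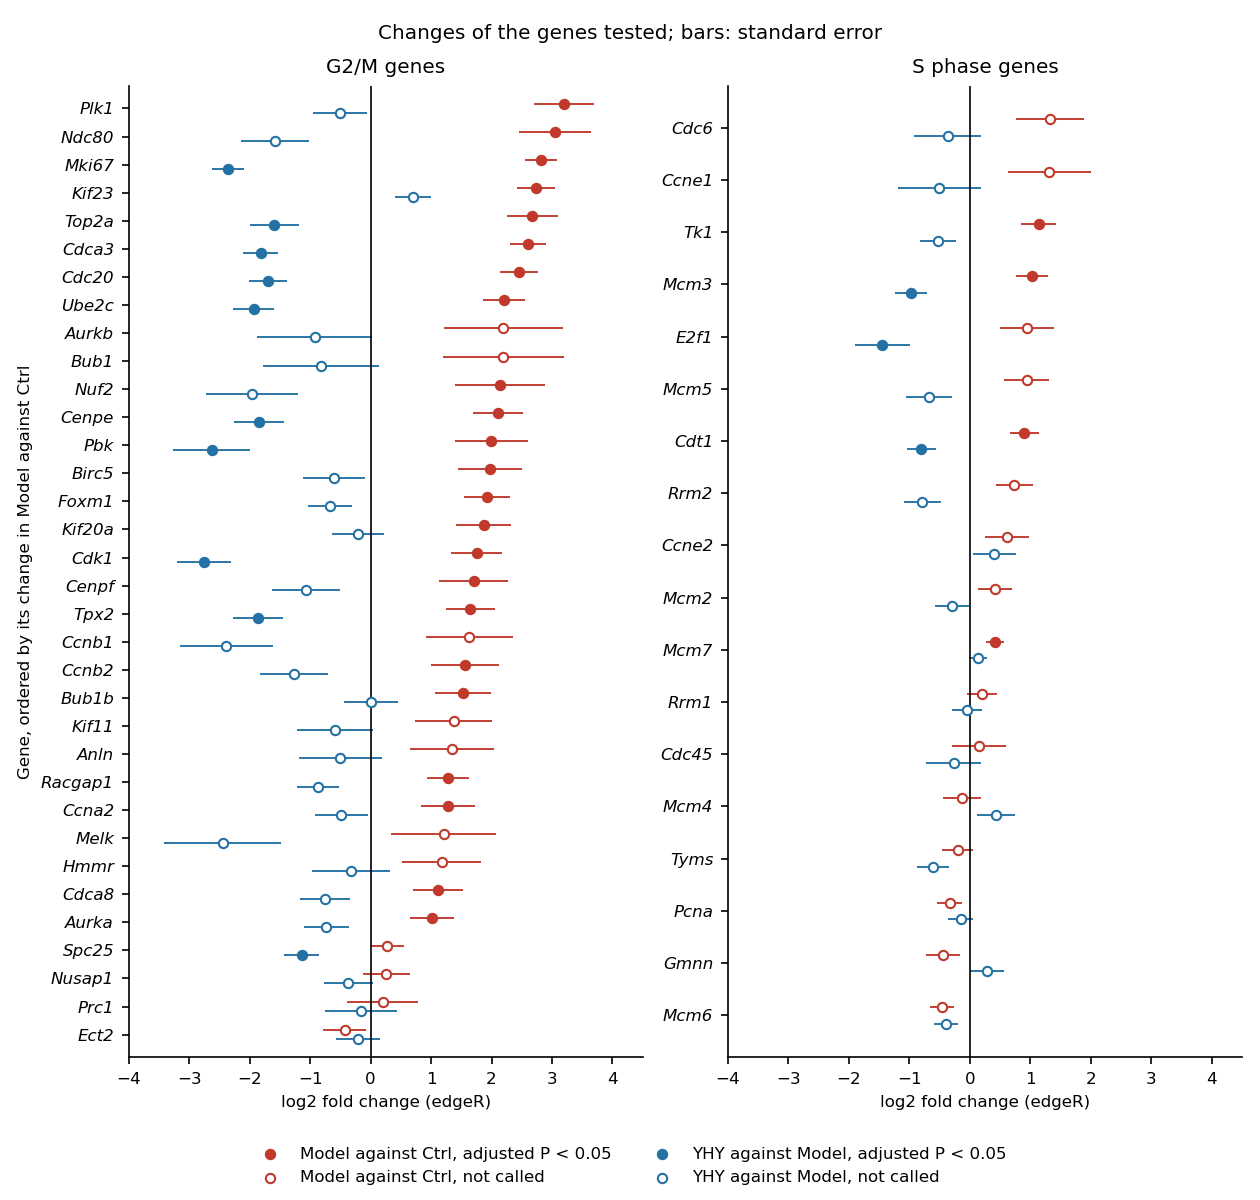
Log2 fold change by edgeR (horizontal axis) of each gene tested, G2/M on the left and S phase on the right, in Model against Ctrl (red) and YHY against Model (blue), with bars for the standard error and filled points for an adjusted P under 0.05. The G2/M genes run from -0.43 to 3.201 in red and from -2.75 to 0.70 in blue, and the S phase genes lie nearer 0.

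In YHY against Model, which shares the Model mice with the comparison above, edgeR called 10 of 34 G2/M genes lower, where 7.62% of all genes were called lower and 5.63% higher. It called 0 higher, while the unadjusted P under 0.05 gave 1 higher (Kif23) and 16 lower, and DESeq2 gave 0 higher and 13 lower. The median log2 fold change of the G2/M genes was -0.90, from -2.75 for Cdk1 to 0.70 for Kif23, beside 0.02 over all genes. Under the scalings tried it ran from -0.99 with library size alone to -0.88 without mitochondrial transcripts, and it was -0.73 with at least 10 counts in every mouse, -0.82 with only the 8 mice compared and -1.31 without YHY 2. With each mouse left out in turn, 9 to 11 G2/M genes were called lower, although the number of all genes called moved from 2311 to 1146 without Model 3. By edgeR's adjusted P, Mki67 fell (log2 fold change -2.35 ± 0.26 (SE), adjusted P = 0.000263), each YHY mouse being below each Model mouse as given above. Cdk1 fell most among those called (log2 fold change -2.75 ± 0.45 (SE), adjusted P = 0.00171 by edgeR), resting on 4 to 32 counts in each YHY mouse. Cdca3 fell (log2 fold change -1.82 ± 0.29 (SE), adjusted P = 0.00148 by edgeR), and its YHY values of 2.44 to 4.42 CPM remained well under the Model values of 9.13 to 12.3 CPM. The pair that acts with the anaphase-promoting complex fell as well, Ube2c with a log2 fold change -1.93 ± 0.34 (SE), adjusted P = 0.00271 by edgeR. Cdc20 did so with a log2 fold change -1.69 ± 0.31 (SE), adjusted P = 0.00359 by edgeR. Top2a fell (log2 fold change -1.59 ± 0.41 (SE), adjusted P = 0.0184 by edgeR), a call that was lost without Model 4 (edgeR adjusted P = 0.0541).

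Tpx2, which activates the kinase Aurora A on the spindle, was at 1.10, 1.123, 1.47 and 0.729 CPM in Ctrl 1 to 4, at 4.96, 2.76, 3.15 and 2.99 CPM in Model 1 to 4 and at 0.878, 1.05, 0.372 and 1.51 CPM in YHY 1 to 4. Each Model mouse was above all others, and Ctrl and YHY overlapped. Tpx2 fell in YHY against Model (log2 fold change -1.87 ± 0.42 (SE), adjusted P = 0.00956 by edgeR). Cenpe, the kinesin that carries chromosomes to the middle of the spindle, was at 1.08, 2.03, 1.71 and 0.342 CPM in Ctrl 1 to 4, at 4.18, 5.76, 7.40 and 4.87 CPM in Model 1 to 4 and at 1.60, 1.33, 1.71 and 1.51 CPM in YHY 1 to 4. The YHY mice were within a narrow range inside that of Ctrl and below Model, and Cenpe fell (log2 fold change -1.84 ± 0.41 (SE), adjusted P = 0.00998 by edgeR). Pbk, a kinase active in mitosis, was at 0.889, 0.811, 0.637 and 0.228 CPM in Ctrl 1 to 4, at 2.64, 3.33, 2.28 and 2.01 CPM in Model 1 to 4 and at 0.534, 0.940, 0.0744 and 0.155 CPM in YHY 1 to 4. The YHY mice ran from near 0 to just above the highest Ctrl mouse, and none reached Model. Pbk fell (log2 fold change -2.63 ± 0.63 (SE), adjusted P = 0.0143 by edgeR), on 2 to 17 counts in each YHY mouse. Spc25 was at 9.97, 11.05, 9.26 and 10.4 CPM in Ctrl 1 to 4, at 17.7, 9.72, 10.8 and 10.9 CPM in Model 1 to 4 and at 2.75, 7.41, 4.43 and 7.83 CPM in YHY 1 to 4. Its Model and Ctrl mice overlapped, Model 1 stood above the rest, and each YHY mouse was below each Ctrl and Model mouse. Spc25 was not called in Model against Ctrl (log2 fold change 0.28 ± 0.28 (SE), adjusted P = 0.458 by edgeR), and fell in YHY against Model (log2 fold change -1.14 ± 0.28 (SE), adjusted P = 0.0166 by edgeR), a call that was lost without Model 1 (edgeR adjusted P = 0.0505). Plk1 and Kif23 were not called in YHY against Model by edgeR (log2 fold change -0.51, adjusted P = 0.488 for Plk1). For Kif23 the values were log2 fold change 0.70, adjusted P = 0.128, and without the filter on low counts edgeR called it higher (adjusted P = 0.0453). The 24 G2/M genes without a call had log2 fold changes of -2.45 to 0.70 in this comparison, and the smallest adjusted P by edgeR among them was 0.0510, for Ccnb1, the cyclin that pairs with Cdk1 (log2 fold change -2.38). Ccnb1 was called lower when Ctrl 2 (0.0417), Ctrl 4 (0.0304) or YHY 2 (0.0461) was left out, edgeR adjusted P in brackets. It was also called lower by DESeq2 (adjusted P = 0.0129) and by edgeR without the filter (0.0131) and with a replicate block (0.0164). Ndc80, not called by edgeR (log2 fold change -1.58, adjusted P = 0.0749), was called lower by DESeq2 (adjusted P = 0.0332) and by edgeR without YHY 1 (0.0410).

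Of the 18 S phase genes edgeR called 3 lower in YHY against Model, where 7.62% of all genes were called lower, and 0 higher. At an unadjusted P under 0.05 there were 0 higher and 5 lower, and DESeq2 gave 0 higher and 3 lower. Their median log2 fold change was -0.38, from -0.38 to -0.35 under the scalings tried and from -0.56 (without YHY 2) to -0.22 (without YHY 3) with each mouse left out. Mcm3 fell (log2 fold change -0.98 ± 0.26 (SE), adjusted P = 0.0228 by edgeR), a call lost without Model 1 (edgeR adjusted P = 0.0637), Model 4 (0.0566) or YHY 3 (0.0569). Cdt1 fell (log2 fold change -0.80 ± 0.25 (SE), adjusted P = 0.0414 by edgeR), with its YHY values of 2.75 to 5.09 CPM under each Model value. That call was lost without Ctrl 3 (edgeR adjusted P = 0.0511), Model 2 (0.0659), Model 3 (0.133), Model 4 (0.0701), YHY 1 (0.0707), YHY 3 (0.0997) or YHY 4 (0.0659). E2f1 fell with an adjusted P close to the limit (log2 fold change -1.45 ± 0.46 (SE), adjusted P = 0.0481 by edgeR). With a mouse left out it kept the call only without Ctrl 3, Ctrl 4 or YHY 2, and lost it (edgeR adjusted P) without Ctrl 1 (0.0539), Ctrl 2 (0.0573), Model 1 (0.0529), Model 2 (0.0675), Model 3 (0.149), Model 4 (0.0814), YHY 1 (0.107), YHY 3 (0.0931) or YHY 4 (0.0643). The count of S phase genes called lower was 0 without Model 4 or YHY 3, and 1 without Model 1, Model 2, Model 3, YHY 1 or YHY 4. Pcna (log2 fold change -0.15, adjusted P = 0.682 by edgeR) was not called. Mcm2 (log2 fold change -0.30, adjusted P = 0.527 by edgeR) and Rrm2 (log2 fold change -0.79, adjusted P = 0.101 by edgeR) were not called either.

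Exact two-sided permutation tests on CPM, 4 mice against 4, asked the same of the always-named genes without a count model, in 21 tests that were not adjusted for their number. The smallest P that 4 against 4 can give is 0.0286. Mki67, Top2a and Cdk1 reached it in both planned comparisons. Rrm2 had an exact P of 0.0286 in Model against Ctrl, 0.0571 in YHY against Model and 0.857 in YHY against Ctrl. For E2f1 the exact P values were 0.0286, 0.0571 and 0.400 in that order. Pcna had 0.171, 0.600 and 0.0286 as exact P values, the last because each YHY mouse was below each Ctrl mouse. Mcm2 was far from the limit in the exact test, at 0.200, 0.457 and 0.714. In YHY against Ctrl the exact P was 0.229 for Mki67, 0.0857 for Top2a and 0.114 for Cdk1.

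YHY against Ctrl shares mice with both other comparisons and gives the differences between treated diabetic and non-diabetic mice. Among the genes called in it, Spc25, Mcm6, Tyms and Ccne2 were not called in Model against Ctrl. Of the 34 G2/M genes edgeR called 9 higher and 1 lower, where 26.1% of all genes were called higher and 24.2% lower, so the share called was near that of all genes for higher and under it for lower. DESeq2 gave 10 higher and 2 lower, and the unadjusted P under 0.05 gave 10 and 2. The median log2 fold change of the G2/M genes was 0.56 beside 0.10 over all genes. It stayed positive under each scaling, from 0.10 with library size alone, which took the median of all genes to -0.33 and the share of higher among called genes from 51.9% to 28.4%, to 0.67 with upper-quartile scaling, which took the median of all genes to 0.22. With library size alone 3 G2/M genes were called higher and 3 lower. Leaving out Ctrl 4 gave 5 higher and 2 lower, leaving out YHY 1 gave 2 lower, and leaving out YHY 3 gave 0 lower. Kif23 rose most surely (log2 fold change 3.43 ± 0.33 (SE), adjusted P = 1.03e-06 by edgeR), followed by Plk1 (log2 fold change 2.69 ± 0.49 (SE), adjusted P = 0.000278 by edgeR). Kif20a, the kinesin that carries regulators to the midzone, was at 0.288, 0.312, 0.465 and 0.342 CPM in Ctrl 1 to 4, at 1.55, 1.00, 1.74 and 0.898 CPM in Model 1 to 4 and at 0.916, 0.8293, 1.60 and 1.124 CPM in YHY 1 to 4. Each mouse of both db/db groups was above each Ctrl mouse, and Kif20a rose in YHY against Ctrl (log2 fold change 1.66 ± 0.45 (SE), adjusted P = 0.00571 by edgeR). Bub1b, of the spindle checkpoint, was at 1.10, 0.687, 1.03 and 0.637 CPM in Ctrl 1 to 4, at 2.70, 2.91, 1.83 and 2.61 CPM in Model 1 to 4 and at 4.16, 2.32, 2.98 and 0.581 CPM in YHY 1 to 4. YHY 4 was below each Ctrl mouse while the other YHY mice were far above. Bub1b rose (log2 fold change 1.53 ± 0.46 (SE), adjusted P = 0.0115 by edgeR), with the call lost without YHY 1 (edgeR adjusted P = 0.0516). Foxm1, the factor that switches on G2/M genes, was at 1.51, 1.25, 0.784 and 0.706 CPM in Ctrl 1 to 4, at 3.06, 5.72, 3.11 and 4.28 CPM in Model 1 to 4 and at 3.85, 1.33, 2.64 and 2.25 CPM in YHY 1 to 4. YHY 2 lay within the Ctrl range, and Foxm1 rose (log2 fold change 1.25 ± 0.38 (SE), adjusted P = 0.0116 by edgeR).

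Spc25 was the G2/M gene called lower (log2 fold change -0.86 ± 0.28 (SE), adjusted P = 0.0180 by edgeR), and the call was lost without YHY 3 (edgeR adjusted P = 0.0522). Cdca3 was called higher (log2 fold change 0.79 ± 0.29 (SE), adjusted P = 0.0336 by edgeR), which was lost without Ctrl 1 (edgeR adjusted P = 0.121), Ctrl 3 (0.0705), Ctrl 4 (0.135), Model 1 (0.0574) or YHY 2 (0.121). Top2a was called higher (log2 fold change 1.08 ± 0.41 (SE), adjusted P = 0.0394 by edgeR), and that call was lost without Ctrl 2 (edgeR adjusted P = 0.0738), Ctrl 3 (0.0738), Ctrl 4 (0.131), Model 1 (0.0623), Model 2 (0.0520), YHY 1 (0.0641) or YHY 2 (0.157). The remaining calls were Birc5 and Ndc80, both higher and both close to the limit, with log2 fold changes of 1.37 and 1.47 and adjusted P values of 0.0422 and 0.0477 by edgeR. Birc5, of the chromosomal passenger complex, lost its call without Ctrl 1 (0.137), Ctrl 4 (0.130), Model 3 (0.0544), Model 4 (0.05003), YHY 2 (0.172) or YHY 4 (0.0556), edgeR adjusted P in brackets. Ndc80 lost it, on the same measure (edgeR adjusted P), without Ctrl 1 (0.107), Ctrl 2 (0.0748), Ctrl 4 (0.138), Model 1 (0.0697), Model 2 (0.0627), Model 4 (0.0590), YHY 1 (0.189) or YHY 3 (0.113). Mki67 was not called (log2 fold change 0.47 ± 0.26 (SE), adjusted P = 0.143 by edgeR). Cdk1 was not called either (log2 fold change -0.997 ± 0.44 (SE), adjusted P = 0.0690 by edgeR), and was called lower without Ctrl 4 (edgeR adjusted P = 0.0161) or YHY 1 (0.0182), with library size alone (0.0251) and by DESeq2.

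Of the 18 S phase genes edgeR called 2 higher and 2 lower in YHY against Ctrl, where 26.1% of all genes were called higher and 24.2% lower. Their median log2 fold change was 0.11 and turned to -0.35 with library size alone, where 0 were called higher and 4 lower, and to -0.10 without YHY 2, so no direction for these genes as a group holds across settings. Mcm6, a helicase subunit, was at 11.8, 12.7, 10.7 and 13.7 CPM in Ctrl 1 to 4, at 7.95, 9.05, 10.0 and 8.47 CPM in Model 1 to 4 and at 7.75, 5.31, 8.71 and 5.19 CPM in YHY 1 to 4. Both db/db groups were below Ctrl, and Mcm6 fell in YHY against Ctrl (log2 fold change -0.86 ± 0.19 (SE), adjusted P = 0.00175 by edgeR). Tyms, which makes thymidylate, was at 9.46, 13.7, 10.1 and 11.1 CPM in Ctrl 1 to 4, at 12.9, 9.15, 10.1 and 6.29 CPM in Model 1 to 4 and at 3.89, 8.18, 5.10 and 8.21 CPM in YHY 1 to 4. Each YHY mouse was below each Ctrl mouse, while Model overlapped both. Tyms fell (log2 fold change -0.81 ± 0.26 (SE), adjusted P = 0.0172 by edgeR), a call lost without Ctrl 2 (edgeR adjusted P = 0.0539), YHY 1 (0.0501) or YHY 3 (0.0504). Mcm7 rose (log2 fold change 0.55 ± 0.15 (SE), adjusted P = 0.00722 by edgeR), with the call lost without Ctrl 1 (edgeR adjusted P = 0.0610) and its reads possibly shared with Cops6. Ccne2, a cyclin of S phase entry, was at 1.08, 1.75, 0.980 and 0.956 CPM in Ctrl 1 to 4, at 2.19, 1.95, 2.06 and 1.07 CPM in Model 1 to 4 and at 2.06, 3.48, 2.12 and 2.01 CPM in YHY 1 to 4. Each YHY mouse was above each Ctrl mouse, and Ccne2 rose (log2 fold change 1.02 ± 0.36 (SE), adjusted P = 0.0266 by edgeR), with the reservation on Ints8. That call was lost without Ctrl 1 (edgeR adjusted P = 0.0819), Ctrl 3 (0.0915), Ctrl 4 (0.0884) or YHY 2 (0.0876). The count of S phase genes called higher was 0 without Ctrl 1 and 1 without Ctrl 3, Ctrl 4 or YHY 2, and the count called lower was 1 without Ctrl 2 or YHY 1. Pcna was not called (log2 fold change -0.48 ± 0.20 (SE), adjusted P = 0.0576 by edgeR), and was called lower without Model 1 (edgeR adjusted P = 0.0248), Model 2 (0.0359) or YHY 3 (0.0487). It was also called lower by edgeR with library size alone (adjusted P = 0.0145), no filter (0.0414), only the 8 mice compared (0.0253), the 9 mice of the authors' means (0.0470) and a replicate block (0.0237). By edgeR E2f1 was called lower without YHY 2 (adjusted P = 0.0381) and with library size alone (0.04375), against 0.382 with all mice under TMM. Mcm2 (log2 fold change 0.12, adjusted P = 0.750 by edgeR) and Rrm2 (log2 fold change -0.06, adjusted P = 0.897 by edgeR) were not called.

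The summed levels show how the genes stood in each mouse, with no test. The 35 G2/M genes summed to 49.8, 51.8, 41.2 and 35.9 CPM in Ctrl 1 to 4, to 151, 154, 124 and 155 CPM in Model 1 to 4 and to 68.3, 95.9, 80.2 and 75.4 CPM in YHY 1 to 4. Means were 44.7 ± 7.43, 146 ± 14.8 and 80.0 ± 11.7 CPM (SD, n = 4). The groups did not overlap in this sum, with YHY between Ctrl and Model, but Kif23 made up much of the YHY value. It took 6.03%, 6.39%, 4.58% and 5.83% of the sum in Ctrl 1 to 4, 6.35%, 12.6%, 11.1% and 16.7% in Model 1 to 4 and 23.1%, 33.5%, 45.2% and 35.7% in YHY 1 to 4. Without Kif23, a sum taken after its values were seen, the other 34 genes came to 46.8, 48.5, 39.3 and 33.8 CPM in Ctrl, 141, 135, 109.9 and 129 CPM in Model and 52.5, 63.8, 44.0 and 48.5 CPM in YHY. YHY then overlapped Ctrl and lay below Model in this sum, in which single genes differed. Plk1 and Kif20a, like Kif23, had each YHY mouse above each Ctrl mouse and YHY mixed with Model, and Bub1b had nearly the same mean per length in Model (0.587 RPKM) and YHY (0.587 RPKM). The 18 S phase genes summed to 105, 107, 109 and 106 CPM in Ctrl 1 to 4, 142, 107, 132 and 109 CPM in Model 1 to 4 and 107, 112, 103 and 88.5 CPM in YHY 1 to 4. Ctrl was narrow, Model 1 and Model 3 were the highest mice, and the db/db groups overlapped each other. Their most abundant gene was Pcna, with 14.4% of the sum over all mice.

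**Figure D4:**
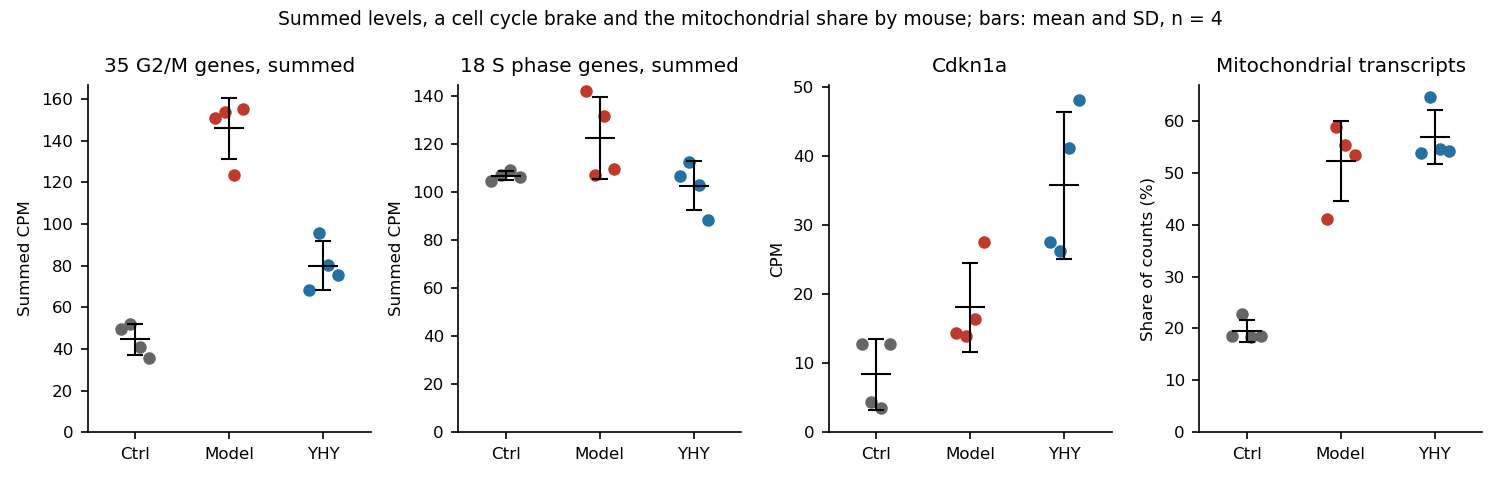
Summed CPM of the G2/M genes and of the S phase genes, CPM of Cdkn1a and percent of counts from mitochondrial transcripts, with a point for each mouse and bars for the mean and SD of 4 mice. G2/M sums are 35.9 to 51.8 CPM in Ctrl, 124 to 155 in Model and 68.3 to 95.9 in YHY, while Cdkn1a and the mitochondrial share do not come down in YHY.

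Further lists place these genes in their pathway: 62 tested mitosis genes outside the 35, 50 tested replication genes outside the 18, 27 G1 cyclins, kinases and E2F or MuvB regulators, and 19 brakes of the cell cycle. In Model against Ctrl edgeR called 28 of the other mitosis genes higher and 4 lower, where 19.6% and 18.5% of all genes were called, with a median log2 fold change of 1.27 that stayed positive under each scaling (0.87 with library size alone, where 19 were higher and 6 lower). With each mouse left out in turn 20 to 30 were higher. The surest were Arhgap11a, an inhibitor of RhoA in division (log2 fold change 2.05, adjusted P = 3.85e-05 by edgeR), Hjurp, which places the centromere histone (log2 fold change 1.75, adjusted P = 4.84e-05), and Cenpm, a centromere protein (log2 fold change 2.62, adjusted P = 0.000113). Lower were the kinesin Kif20b (log2 fold change -2.29, adjusted P = 5.56e-05 by edgeR), Zwint of the kinetochore (log2 fold change -0.69, adjusted P = 0.000860) and Depdc1b (log2 fold change -1.38, adjusted P = 0.00191). Of the other replication genes 13 rose and 4 fell (26.0% and 8.00%), with a median of 0.51. With library size alone the balance of calls turned, with 6 higher and 9 lower and a median of 0.05. The DNA polymerase subunits Pole (log2 fold change 2.39, adjusted P = 6.36e-05 by edgeR) and Pold1 (log2 fold change 1.23, adjusted P = 0.000608) and the helicase Mcm8 (log2 fold change 1.48, adjusted P = 0.000659) rose. Pole4, a small polymerase subunit (log2 fold change -1.23, adjusted P = 0.000327 by edgeR), Rrm2b (log2 fold change -1.06, adjusted P = 0.00159) and Rpa1, which binds single-stranded DNA (log2 fold change -0.59, adjusted P = 0.00684), fell. Of the G1 list 3 rose and 5 fell (11.1% and 18.5%, under or at the shares of all genes), with a median of -0.11 under TMM, -0.54 with library size alone, where 1 rose and 12 fell, and -0.01 with upper-quartile scaling. Without Ctrl 1, Ctrl 3, Model 2 or Model 3 only 1 of this list rose. Mybl2, which encodes B-MYB, rose (log2 fold change 1.95, adjusted P = 0.00309 by edgeR), as did Lin37 of MuvB (log2 fold change 0.78, adjusted P = 0.0216) and E2f7 (log2 fold change 2.1997, adjusted P = 0.0487). E2f5 (log2 fold change -1.20, adjusted P = 9.64e-05 by edgeR), Rbbp4 (log2 fold change -1.02, adjusted P = 0.000387) and Ccnh (log2 fold change -0.65, adjusted P = 0.00419) fell. Lin37 lost its call without Ctrl 1 (0.0786), Ctrl 2 (0.0528), Ctrl 3 (0.0502), Model 2 (0.1101) or Model 3 (0.0554), edgeR adjusted P in brackets. E2f7 lost it (edgeR adjusted P) without Ctrl 1 (0.0692), Ctrl 2 (0.115), Ctrl 3 (0.128), Ctrl 4 (0.0895), Model 2 (0.117), Model 3 (0.122), Model 4 (0.0699), YHY 1 (0.0580), YHY 3 (0.0635) or YHY 4 (0.0524). Ccnd1, the cyclin of G1, was not called (log2 fold change 0.44, adjusted P = 0.0616 by edgeR), and was called higher by DESeq2 (adjusted P = 0.0496). It was also called by edgeR with upper-quartile scaling (adjusted P = 0.0254), at least 10 counts in every mouse (0.0354), without Ctrl 4 (0.0480) and without YHY 4 (0.0441).

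Of the brakes 3 rose and 2 fell in Model against Ctrl (15.8% and 10.5%, under the 19.6% and 18.5% of all genes), with a median of 0.10 that turned to -0.34 with library size alone, where 1 rose and 5 fell, and to -0.03 without Model 2. Without Ctrl 4, Model 2, Model 3 or Model 4 the brakes that fell were 0, without Ctrl 1, Ctrl 3 or YHY 3 they were 1, and without Model 1 they were 4. Cdkn1a, which encodes the kinase inhibitor p21, was at 12.8, 4.46, 3.502 and 12.8 CPM in Ctrl 1 to 4, at 14.3, 14, 16.5 and 27.6 CPM in Model 1 to 4 and at 27.6, 26.3, 41.2 and 48.1 CPM in YHY 1 to 4. Ctrl 2 and Ctrl 3 were lowest, each Model mouse was above each Ctrl mouse, and each YHY mouse was above each Ctrl mouse and above Model 1 to 3. Cdkn1a rose in Model (log2 fold change 1.10 ± 0.37 (SE), adjusted P = 0.0290 by edgeR), a call lost without Ctrl 2 (edgeR adjusted P = 0.0809), Ctrl 3 (0.0922) or Model 4 (0.117). It was also lost with library size alone (log2 fold change 0.64, adjusted P = 0.213 by edgeR) and with the 9 mice of the authors' means (log2 fold change 0.94, adjusted P = 0.0797). It was not called in YHY against Model (log2 fold change 0.98 ± 0.37 (SE), adjusted P = 0.0902 by edgeR). There it was called higher by DESeq2 (adjusted P = 0.0448) and by edgeR without the filter (adjusted P = 0.00746), with only the 8 mice compared (0.0297) and with a replicate block (0.0467). By edgeR Cdkn1a was higher in YHY against Ctrl (log2 fold change 2.09 ± 0.38 (SE), adjusted P = 0.000296 by edgeR). The G2/M genes called lower in YHY against Model thus stood beside a p21 transcript that was not called lower there. A link between the p21 transcript and the G2/M genes was not tested. Cdkn1c (log2 fold change 1.53, adjusted P = 7.85e-05 by edgeR) and the checkpoint kinase Atr (log2 fold change 0.72, adjusted P = 0.00671) also rose in Model. Cdkn1b (log2 fold change -0.46, adjusted P = 0.03001 by edgeR) and Trp53 (log2 fold change -0.48, adjusted P = 0.0460) fell, both close to the limit. Cdkn1b lost its call without Ctrl 3 (0.0543), Ctrl 4 (0.0537), Model 2 (0.0837), Model 3 (0.0530) or Model 4 (0.0806), edgeR adjusted P in brackets. Trp53 did so (edgeR adjusted P) without Ctrl 1 (0.0896), Ctrl 2 (0.0820), Ctrl 4 (0.0629), Model 2 (0.0854), Model 3 (0.136), Model 4 (0.146) or YHY 3 (0.0533).

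In YHY against Model edgeR called 3 of the other mitosis genes higher and 13 lower (4.84% and 21.0%), where 5.63% and 7.62% of all genes were called, with a median of -0.55 and the same sign under each scaling. The count of 13 was not stable: 7 fell with library size alone and 4 of 57 tested with only the 8 mice compared. With single mice left out 6 fell without Model 3 or Model 4, 7 without Model 2, YHY 1 or YHY 3 and 8 without Model 1 or YHY 2. Cenpm fell (log2 fold change -2.55, adjusted P = 0.00117 by edgeR), as did Knstrn of the spindle (log2 fold change -1.97, adjusted P = 0.00472) and Cks2, a partner of Cdk1 (log2 fold change -1.08, adjusted P = 0.00966). Higher were the condensin subunits Ncapd3 (log2 fold change 1.39, adjusted P = 0.000444 by edgeR) and Smc4 (log2 fold change 0.59, adjusted P = 0.0351) and the kinesin Kif2a (log2 fold change 0.55, adjusted P = 0.0443). Of the other replication genes 1 rose and 4 fell, near those shares for lower and under them for higher, with a median of -0.04. That median turned to 0.05 with the 9 mice of the authors' means, 0.04 without YHY 4, 0.03 with only the 8 mice compared and 0.02 without Model 4. Library size alone gave 0 higher and 2 lower. Dnmt1, which keeps DNA methylation, rose (log2 fold change 0.63, adjusted P = 0.0342 by edgeR). The clamp loader Rfc2 (log2 fold change -0.69, adjusted P = 0.00748 by edgeR) and Gins4 (log2 fold change -0.66, adjusted P = 0.0241) fell. Of the G1 list Myc rose (log2 fold change 1.55, adjusted P = 0.00951 by edgeR) and Ccnd1 fell (log2 fold change -0.63, adjusted P = 0.0315). The median of this list, -0.02, turned to 0.02 with library size alone, 0.01 without mitochondrial transcripts and 0.004 with upper-quartile scaling. It was also positive without Model 2 (0.08) and with only the 8 mice compared (0.02). Ccnd1 was at 52.3, 46.9, 70.0 and 76.7 CPM in Ctrl 1 to 4, at 93.0, 85.6, 85.9 and 70.1 CPM in Model 1 to 4 and at 52.3, 63.6, 59.4 and 41.6 CPM in YHY 1 to 4. Model 1 to 3 were above all other mice, while Model 4 lay within the Ctrl range. Of the brakes Trp53 rose (log2 fold change 0.70, adjusted P = 0.0205 by edgeR) and Cdkn2c fell (log2 fold change -1.32, adjusted P = 0.00254), with a median of 0.25 and the same sign under each scaling. For the G1 list and the brakes these single calls lie near or under the shares of all genes. Several of these calls hung on single mice, with the edgeR adjusted P without them in brackets. Smc4 lost its call without Model 1 (0.0864), Model 2 (0.0669), Model 3 (0.0701), YHY 1 (0.0509) or YHY 2 (0.101). Kif2a lost it (edgeR adjusted P) without Ctrl 1 (0.0714), Ctrl 3 (0.0681), Ctrl 4 (0.0577), Model 2 (0.0833), Model 3 (0.122), Model 4 (0.114), YHY 1 (0.121) or YHY 2 (0.0702). Dnmt1 was no longer called (edgeR adjusted P) without Ctrl 1 (0.0535), Ctrl 3 (0.0512), Model 2 (0.0816), Model 3 (0.113), Model 4 (0.0816), YHY 2 (0.0942), YHY 3 (0.0504) or YHY 4 (0.0527). The same held for Gins4 (edgeR adjusted P) without Model 4 (0.0642) or YHY 2 (0.0546), for Ccnd1 without Model 1 (0.0789), Model 2 (0.0644), Model 3 (0.0820), YHY 1 (0.0638) or YHY 4 (0.0635) and for Trp53 without Model 3 (0.0784) or Model 4 (0.0606).

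In YHY against Ctrl 16 of the other mitosis genes were called higher and 6 lower by edgeR (25.8% and 9.68%), where 26.1% and 24.2% of all genes were called, with a median of 0.63 (0.22 with library size alone, where 7 were higher and 7 lower). Without Ctrl 4, and also with only the 8 mice compared, 9 were higher. The share called higher was thus close to that of all genes in this list and in the brakes, and a little above it in the replication list. Ncapd3 (log2 fold change 1.68, adjusted P = 3.03e-06 by edgeR), Smc4 (log2 fold change 1.27, adjusted P = 2.41e-05) and Hjurp (log2 fold change 1.66, adjusted P = 2.66e-05) led those that rose. Kif20b (log2 fold change -2.80, adjusted P = 4.35e-06 by edgeR), Depdc1b (log2 fold change -2.38, adjusted P = 1.68e-05) and Zwint (log2 fold change -0.997, adjusted P = 2.05e-05) led those that fell. Of the other replication genes 15 rose and 7 fell, with a median of 0.34 that turned to -0.07 with library size alone, where 4 rose and 14 fell. Without Ctrl 1, Ctrl 3 or YHY 2 only 9 rose. Mcm8 (log2 fold change 1.65, adjusted P = 0.000144 by edgeR), Orc3 of the origin complex (log2 fold change 0.86, adjusted P = 0.000410) and Pold3 (log2 fold change 0.90, adjusted P = 0.000504) rose, and Pole4 (log2 fold change -1.69, adjusted P = 1.09e-05) and Pold2 (log2 fold change -0.82, adjusted P = 0.00149) fell. Of the G1 list 6 rose and 7 fell, with a median of -0.30, against 1 and 14 and a median of -0.69 with library size alone. Without Ctrl 1, Ctrl 3, Ctrl 4 or YHY 4 only 3 rose. Mybl2 (log2 fold change 2.52, adjusted P = 0.000264 by edgeR), Myc (log2 fold change 1.33, adjusted P = 0.00392) and Lin37 (log2 fold change 0.85, adjusted P = 0.00919) rose, and Rbbp4 (log2 fold change -1.34, adjusted P = 1.89e-05), E2f5 (log2 fold change -0.69, adjusted P = 0.00346) and Ccnd3 (log2 fold change -0.59, adjusted P = 0.00353) fell. Of the brakes 5 rose and 1 fell, with a median of 0.22 that turned to -0.21 with library size alone, where 3 rose and 5 fell, and to -0.02 without YHY 1. Without Ctrl 1, Ctrl 4 or YHY 2 only 3 rose. Atr (log2 fold change 1.17, adjusted P = 0.000104 by edgeR) and Cdkn1c (log2 fold change 1.06, adjusted P = 0.000666) rose beside Cdkn1a, and Cdkn2c fell (log2 fold change -1.47, adjusted P = 7.80e-05). Ccnd1 was not called (log2 fold change -0.18, adjusted P = 0.419 by edgeR), and was called lower with library size alone (edgeR adjusted P = 0.0304).

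Cells that divide in a kidney may be tubule, vessel or immune cells, so markers of each were summed per mouse. Their counts of calls are to be read beside those of all genes, near which many of them lie: 19.6% higher and 18.5% lower for Model against Ctrl, 5.63% and 7.62% for YHY against Model, 26.1% and 24.2% for YHY against Ctrl. Macrophage markers (Lyz2, 57.3% of the sum) came to 157 to 240.1 CPM in Ctrl, 195 to 308 in Model and 193 to 498 in YHY. Of 10 tested, 1 rose and 3 fell in Model against Ctrl and 3 rose and 2 fell in YHY against Ctrl. T cell markers (Trac, 34.9% of the sum) came to 2.65 to 8.67 CPM in Ctrl, 2.47 to 4.15 in Model and 1.82 to 6.48 in YHY. B and plasma cell markers (Igkc, 66.7% of the sum) came to 36.6, 44.2, 30.2 and 14.5 CPM in Ctrl 1 to 4, 8.56, 9.81, 16.2 and 19.3 in Model 1 to 4 and 123, 25.8, 126 and 9.53 in YHY 1 to 4. YHY 1 and YHY 3 were far above the rest, 1 of 6 tested fell in Model against Ctrl, and 2 (Igkc and Jchain) rose in YHY against Model. Both of these calls were lost with a replicate block in the model (adjusted P = 0.0758 for Igkc and 0.111 for Jchain by edgeR). In Model against Ctrl the gene that fell, Jchain, lost its call with the block (edgeR adjusted P = 0.0537) and with the 9 mice of the authors' means (0.0844). Igkc gained a call as lower there with library size alone (edgeR adjusted P = 0.0416), no filter (0.00306) and only the 8 mice compared (0.00706). Erythroid markers (Hba-a1, 56.8% of the sum) came to 306 to 687 CPM in Ctrl, 272 to 476 in Model and 325 to 1062 in YHY, with 1 of 6 higher and 3 lower in Model against Ctrl, 2 higher in YHY against Model and 2 higher in YHY against Ctrl. Adipocyte markers (Cidec, 63.7% of the sum), of which 1 was tested, came to 0.319 to 0.593 CPM in Ctrl, 0.812 to 2.57 in Model and 0.332 to 1.98 in YHY. Adrenal cortex markers (Hsd3b1, 72.0% of the sum) came to 1.96 to 3.00 CPM in Ctrl, 11.8 to 24.3 in Model and 13.3 to 19.2 in YHY. Hsd3b1 and Star, the 2 tested, were higher in both db/db groups than in Ctrl. Of the 6 genes listed, 2 to 4 were at 0 in each Ctrl mouse and 3 or 4 in each db/db mouse. Cyp11b2 was at 0 in each mouse, and whether adrenal tissue was present was not tested. Proximal tubule markers (Slc27a2, 40.7% of the sum) came to 6760 to 9093 CPM in Ctrl, 5123 to 6211 in Model and 3255 to 6011 in YHY. Called were 4 of 8 lower in Model against Ctrl, and 1 higher (Slc5a12) and 5 lower in YHY against Ctrl. Slc5a12 lost that call with library size alone (edgeR adjusted P = 0.0664) and with only the 8 mice compared (0.0765). It also lost it with the 9 mice of the authors' means (edgeR adjusted P = 0.5545) and with the replicate block (0.289). Markers of other nephron segments (Slc12a1, 38.0% of the sum) came to 1888 to 3582 CPM in Ctrl, 1680 to 2134 in Model and 1696 to 2636 in YHY. Called were 1 of 8 higher and 2 lower in Model against Ctrl, 1 lower in YHY against Model, and 1 higher and 3 lower in YHY against Ctrl. Podocyte markers (Podxl, 37.5% of the sum) came to 112 to 155 CPM in Ctrl, 114 to 262 in Model and 80.6 to 163 in YHY. Called were 3 of 6 higher in Model against Ctrl, and 3 higher and 1 lower in YHY against Ctrl. In Model against Ctrl, Synpo lost its call with library size alone (edgeR adjusted P = 0.732), the 9 mice of the authors' means (0.2165) and the replicate block (0.0690). Library size alone also took the call of Ptpro there (edgeR adjusted P = 0.08905). In YHY against Ctrl, Synpo lost its call with library size alone (edgeR adjusted P = 0.577) and the 9 mice (0.0800). Endothelial and stromal markers (Acta2, 18.3% of the sum) came to 248 to 327 CPM in Ctrl, 269 to 345 in Model and 239 to 401 in YHY. Called were 2 of 8 higher in Model and 2 in YHY, each against Ctrl. Injured tubule markers (Spp1, 83.4% of the sum), which include Cdkn1a, came to 739 to 1068 CPM in Ctrl, 665 to 1374 in Model and 766 to 1137 in YHY. Called were 1 of 8 higher and 2 lower in Model against Ctrl, 1 higher (Lcn2) in YHY against Model, and 1 higher and 2 lower in YHY against Ctrl. In the lists without a call in a comparison, 7 genes were tested in Model against Ctrl (1 at an unadjusted P under 0.05 by edgeR, 1 by DESeq2), 41 in YHY against Model (12 and 5) and 13 in YHY against Ctrl (3 and 2). The part of any cell type or of the mitochondrial share in the levels of the cell cycle genes was not tested.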

How the data were processed

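Kidney mRNA of 12 mice, 4 per group, was sequenced, 1 library per mouse. The deposited count values are reads counted per gene and not normalized. The submitters' processing notes list FastQC 0.11.9, Trimmomatic 0.39, HISAT2 2.2.1, SAMtools 1.12, featureCounts 2.0.1 (Subread), DESeq2 1.34.0 and R 4.1.2, on GRCm39; the annotation release and the strand setting of the counting were not given in the sources used here. The signal values of the authors' comparison tables are counts divided by a factor per library and averaged by the authors over 3 mice of a group. They were used only to find which 9 mice those means hold. The 12 further per-mouse columns of these tables were not used. The authors' fold changes and p-values and their KEGG pathway tables exist and were not used.

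Counts of all 57490 genes were taken, including 480 without a gene symbol and 37 mitochondrial genes. Libraries held 24415658 to 33276634 counts. Intervals on shares cover counting error only. In R 4.3.3, edgeR 4.0.16 (with limma 3.58.1) filtered genes (filterByExpr, 17431 kept), scaled by TMM and fitted 1 quasi-likelihood model to the 12 mice (prior count 0.125), with Benjamini-Hochberg adjustment over all genes in each comparison and a limit of 0.05. The standard error was taken from the fold change and the F statistic. Exact two-sided permutation tests on CPM were run for Mki67, Top2a, Cdk1, Pcna, Mcm2, Rrm2 and E2f1, with 0.0286 the smallest P possible. The steps were tested on simulated data. Tables, promoter letters and figures were made in Python 3.11.15 (matplotlib 3.10.9, pandas 2.3.3, numpy 2.4.6).

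The alternatives were DESeq2 1.42.0, upper-quartile scaling, library size alone, no mitochondrial transcripts, no filter, at least 10 counts in every mouse, only the 8 mice compared, the 9 mice of the authors' means, a replicate block, a fold change over 1.2 with unadjusted P under 0.05, and each mouse left out.

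The members and lists were chosen with earlier results of these data known. Named with values were those 7 genes always and, in each comparison, up to 8 G2/M and 6 S phase genes under the limit by smallest adjusted P. From each other pathway list up to 3 higher and 3 lower genes were named, and Cdkn1a and Ccnd1 always. Genes named outside this rule were chosen after their values were seen.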

Additional observations from a re-analysis of the deposited data

Results flagged for a closer look

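By Dixon's rule for 4 values, 3 of 72 groups held a mouse apart from the others, where 3.6 would be expected by chance at the 5 percent level. They were the log2 CPM of Cdk1 in Ctrl, with Ctrl 4 lowest (ratio 0.8897), the log2 summed CPM of the G2/M genes in Model, with Model 3 lowest (0.8764), and the log2 summed CPM of the cell cycle brakes in Model, with Model 1 highest (0.9038). All mice were kept. Without Ctrl 4, Cdk1 was called lower in YHY against Ctrl by edgeR, and without Model 3 the G2/M genes called higher in Model against Ctrl numbered 20.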

How the results depend on the processing

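Calls were remade under other settings. Model against Ctrl: DESeq2 called 7 S phase genes higher. Library size alone called 15 G2/M genes higher and 1 lower, 0 S phase genes higher and 3 lower, and put Mcm7 at -0.0256 and Ccnd1 at -0.0050 (log2). A fit of only the 8 mice compared called 7 S phase genes higher and 1 lower, the 9 mice of the authors' means 2 lower, and a fold change over 1.2 with unadjusted P under 0.05 called 8 higher and 1 lower.

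YHY against Model: genes called, YHY against Model, were 1177 with library size alone, and no filter called 1 G2/M gene higher. Only the 8 mice compared gave 0 S phase genes lower and 1385 genes called. The 9 mice of the authors' means gave 1 S phase gene higher, 0 lower and Pcna at 0.0694 (log2). A fold change over 1.2 with unadjusted P under 0.05 gave 1 G2/M gene higher and 16 lower, 5 S phase genes lower and 4988 genes called.

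YHY against Ctrl: DESeq2 called 2 G2/M genes lower, and a fold change over 1.2 with unadjusted P under 0.05 also 2. Upper-quartile scaling put Rrm2 at 0.0637 and at least 10 counts in every mouse put it at 0.0046 (log2). Library size alone called 3 G2/M genes higher and 3 lower, 0 S phase genes higher and 4 lower, and put Mcm2 at -0.35. No filter called 1 S phase gene higher, and only the 8 mice compared 5 G2/M genes higher.

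With each mouse left out in turn, counts ranged as follows. Model against Ctrl gave 18 to 25 G2/M genes higher, 3 to 6 S phase genes higher and 0 to 2 lower (2 without Model 1). YHY against Model gave 9 to 11 G2/M genes lower and 0 (without Model 4 or YHY 3) to 4 (without YHY 2) S phase genes lower; genes called, YHY against Model, went from 1146 (without Model replicate 3) to 2723 (without YHY replicate 4). YHY against Ctrl gave 5 (without Ctrl 4) to 9 G2/M genes higher and 0 (without YHY 3) to 2 lower (without Ctrl 4 or YHY 1), and 0 (without Ctrl 1) to 2 S phase genes higher and 1 to 3 lower. The log2 fold change of Pcna, YHY against Model, went from -0.3033 to 0.0523, and in YHY against Ctrl that of Mcm2 from -0.1381 to 0.2641 and that of Rrm2 from -0.2492 to 0.0261, so these signs were not stable.

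With the replicate number as a block in the model, edgeR called 22 G2/M and 4 S phase genes higher in Model against Ctrl (24 shared with the fit without it), 11 and 2 lower in YHY against Model (12 shared), and in YHY against Ctrl 6 G2/M genes higher and 1 lower and 3 S phase genes higher and 3 lower (11 shared). The replicate numbers did not pair the mice, with correlations of -0.173 to 0.1247, and in 3 of 12 cases, a number within a comparison, the same number correlated best.

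Calls of named genes also hung on the setting. In YHY against Model, Cdt1 lost its call with library size alone, no filter, only the 8 mice compared, the 9 mice of the authors' means and the replicate block, Mcm3 and E2f1 with the 8 and the 9 mice, and Top2a and Pbk with the 9 mice. In YHY against Ctrl, Pcna was called lower with library size alone, no filter, the 8 mice, the 9 mice and the block, and Top2a and Birc5 lost their calls with library size alone, the 8 mice, the 9 mice and the block. There Ndc80 lost its call with library size alone, no filter, the 8 mice and the block, Cdca3 with library size alone, no filter and the 8 mice, Ccne2 with library size alone and no filter, and Bub1b, Foxm1 and Mcm7 with library size alone. In Model against Ctrl, library size alone took the calls of Aurka, Bub1b, Ccna2, Ccnb2, Cdca8, Cdt1, Cenpf, Mcm3, Mcm7, Nuf2, Racgap1 and Tk1, no filter those of Aurka, Cdca8 and Mcm7, the 9 mice those of Aurka, Ccnb2, Cdca8, Cenpf and Mcm7, and the block those of Aurka, Ccnb2 and Cenpf. At least 10 counts in every mouse left called members untested: Ccnb2, Cdk1, Cenpf, Ndc80, Nuf2, Pbk and Plk1 of Model against Ctrl, Cdk1 and Pbk of YHY against Model, and Ndc80 and Plk1 of YHY against Ctrl.

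In the other lists library size alone took, among others, the Model against Ctrl calls of Atr, E2f7 and Lin37, the YHY against Model calls of Smc4, Kif2a, Dnmt1, Gins4, Ccnd1 and Trp53 and the YHY against Ctrl calls of Lin37, Myc and Pold3. Only the 8 mice compared took, among others, those of Smc4, Kif2a, Dnmt1, Gins4 and Ccnd1 in YHY against Model, and the block, among others, those of Kif2a, Dnmt1 and Ccnd1. In Model against Ctrl, upper-quartile scaling took those of Cdkn1b and Trp53.

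Groups of 4 mice bound what can be called, and mice within a group differed more than counting error allows (chi-square per degree of freedom 13.9 to 109). Genotype, glucose and mitochondrial share went together, cage and sequencing batch were not given, and bulk tissue does not show which cells cycled. A gene not called was not shown to be unchanged.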
